A study of Homo sapiens with 6 samples.

Results

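S100 proteins and annexins were read in EJ/T24 bladder cancer cells transfected with FOXA1 and in control cells. Members were the probesets of the array whose only annotated symbol is an S100 gene (S100A with a number, S100B, S100G, S100P, S100Z or S100PBP) or an annexin (ANXA with a number). This name rule took 47 of the 54613 tested probesets and 31 of the 19775 named genes, namely 19 S100 genes, 11 annexins and S100PBP. Each gene was read by the probeset with the highest mean log2 signal over the 6 arrays. S100PBP shares the name only, since it encodes a protein that binds S100P and is not an S100 protein itself. The rule left out S100A7A, the annexin A2 pseudogenes, and probesets shared by ANXA8 and ANXA8L1 or by ANXA2 and SNU13.

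S100 proteins are small calcium sensors that carry a pair of EF hands, the helix-loop-helix motif that holds a calcium ion, and most work as dimers. Calcium exposes a hydrophobic face through which they bind target proteins, and several are also secreted and act as danger signals on receptors such as RAGE and TLR4. Annexins bind acidic phospholipids when calcium rises, which brings them to the inner face of membranes during vesicle traffic, cytoskeletal anchoring and membrane repair. The families meet in fixed complexes, of which S100A10 with annexin A2 and S100A11 with annexin A1 are the best known. In urothelium and other epithelia, members of both families differ between normal and malignant tissue.

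EJ/T24 is an established line from an invasive human bladder cancer, and the study asked what FOXA1, a forkhead transcription factor of luminal epithelium, does to its transcripts. The samples were 3 arrays of FOXA1 transfected cells (the labels say only that a FOXA1 construct was used) and 3 arrays of control cells given empty pUC19 vector, all from the same line. Both groups were grown in DMEM with fetal calf serum and transfected at 70% confluence with 24 µg of DNA, with Lipofectamine 2000 as the reagent. The paper instead describes a pcDNA3 vector and Lipofectamine LTX. Neither the time from transfection to RNA extraction nor the share of cells that took up plasmid is given in the sources used here. FOXA1 protein was checked in the paper by western blot on a small part of the transfected cells, with triplicates of both groups in its supplement. The paper says that the transfections were done in triplicate, but no source used here ties each array to a culture of its own, so the p-values cover array to array spread only, part or all of which can be technical.

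The targeted gene was read first. At its brightest probeset FOXA1 had signals of 38.9, 34.8 and 31.9 on the FOXA1 transfected arrays, against 21.8, 24.4 and 21.0 on the control arrays. The groups did not overlap, with a ratio of 1.57 (p = 0.10 by an exact permutation test, two-sided, which cannot go lower with 3 against 3 arrays, and limma adjusted p = 0.307). A second, dimmer FOXA1 probeset had 2.5, 6.8 and 6.6 against 8.0, 7.3 and 5.9, with overlap, and whether the plasmid's insert holds the bases either probeset reads is not stated. Differences are given throughout as log2 signal in FOXA1 transfected minus control arrays, as labelled. The study's own list of changed genes gives the opposite sign for the genes it shares with these arrays, and none of the members is in that list.

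Other properties of the arrays were compared too. For ACTB, signal at the 3' end over signal at the 5' end, a measure of RNA integrity and labelling, was 2.37 ± 0.228 in FOXA1 transfected and 1.73 ± 0.188 in control arrays (SD, n = 3 each), without overlap (exact permutation test, p = 0.10). The same ratio of GAPDH was 0.920 and 0.899 (exact permutation test, p = 0.30). Mean correlations were taken over the log2 signals of all tested probesets. FOXA1 arrays 1, 2 and 3 had 0.9281, 0.9265 and 0.9297 with their own group, and 0.9278, 0.9261 and 0.9319 with the control arrays. Control arrays had 0.9355, 0.9336 and 0.9345 with their own group, and 0.9289, 0.9257 and 0.9311 with the FOXA1 transfected arrays. FOXA1 array 3 had the lowest signal of its group at 10 of the 13 brightly read members below, a count not made over all genes. The part of these properties in the members' values was not tested.

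Markers of cell type were read beside the members. Of the 8 markers of invasive bladder carcinoma cells, VIM, KRT18, CD44 and CAV1 were in the top 25% of signals on every array. None of the 8 passed limma's test, with 6 above 0 and 2 below. The groups did not overlap for 3 of them, CAV1 (0.20) and KRT7 above and FN1 (-0.88) below. A list of 12 urothelial markers was mainly of luminal or differentiated cells, but also held KRT13 and the basal keratin KRT5. None of the 12 was in the top 25%. Their summed signal ranged from 122.5 to 133.3 in FOXA1 transfected and from 98.3 to 115.5 in control arrays. None of these passed the test, with 8 above 0, 4 below (UPK3B, KRT5, PPARG and KRT13) and a median of 0.13. Among the uroplakins UPK1B gave 0.80 without overlap and UPK3B -1.47 with overlap, at signals of at most 30.4 and 9.2. None of the 13 leukocyte markers measured reached the top 25%, with summed signals of 107.5 to 162.2 in FOXA1 transfected and 87.8 to 129.3 in control arrays, and none passed the test. Of these 13, 9 lay above 0 and 4 below (ELANE, HLA-DRA, MPO and ITGAM). CD2 of T cells had 18.4, 17.8 and 15.4 against 12, 11.4 and 7.1, without overlap (0.79), and CD3E gave 0.93 with overlap. PTPRC, which encodes CD45, had 6.8, 7.1 and 7.9 against 10.4, 5.6 and 6.2, with overlap. Since this is RNA of a whole culture, fewer cells of a type and less RNA per cell cannot be told apart.

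The members fell into a bright and a dim set, with no signal between 33.6 and 210.7 at any member's brightest probeset. The top 25% of signals began at 75.6 to 80.8, depending on the array, and 13 genes lay in it on all 6 arrays. They were S100A2, S100A10, S100A11, S100A13, S100A16, ANXA1, ANXA2, ANXA4, ANXA5, ANXA6, ANXA7, ANXA11 and S100PBP, and none had a signal under 210.7. The other 18 members had no signal over 33.6. Within that set S100A1, S100A6 and S100A14 had a mean above the median of all probesets, and 15 genes lay at or under it. A dim signal can come from a poor probeset as well as from little RNA, so the split is by the signal of a probeset and is no order of RNA levels between genes.

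**Figure D1:**
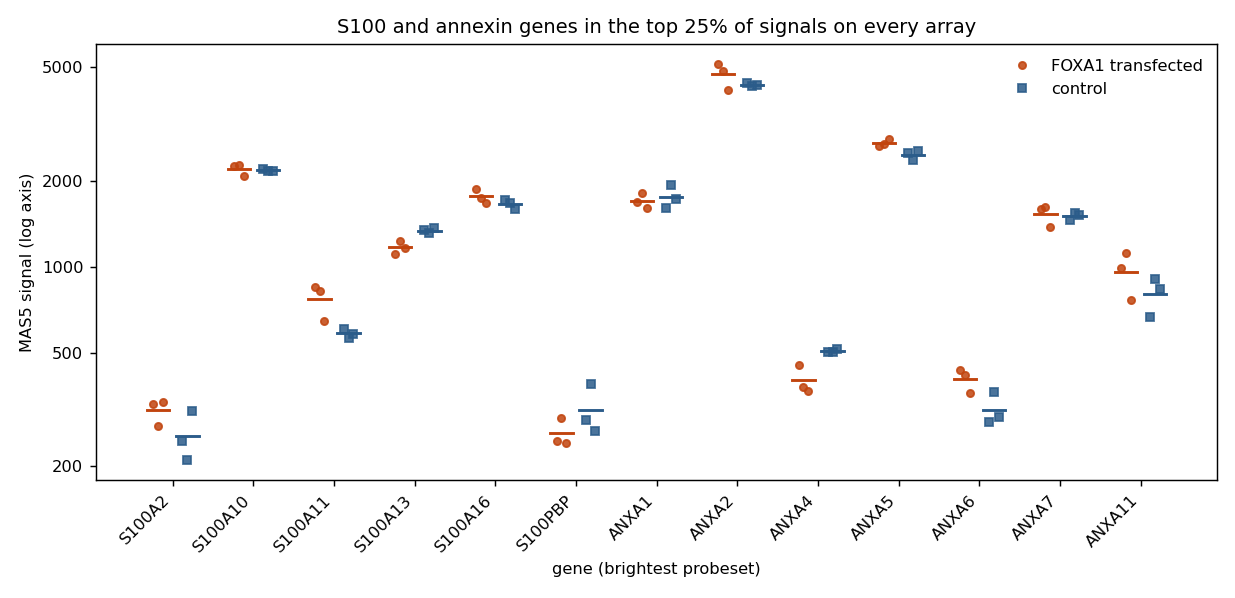
MAS5 signal (log axis) of the 13 members in the top 25% of signals on every array, with 1 point per array, FOXA1 transfected arrays left of control arrays for each gene. S100A11 and ANXA5 are the genes whose 3 FOXA1 transfected points all lie above the control points, and ANXA4 and S100A13 those whose points all lie below, although after median centring of each array only ANXA4 keeps this separation and ANXA5 changes sign to -0.043.

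Of the bright S100 genes, 3 are known from epithelial cells and cancers. S100A11 (calgizzarin) binds annexin A1 and takes part in membrane repair and growth control. Its signals were 854, 824 and 648 in FOXA1 transfected cells, against 609, 565 and 584 in control cells. Every FOXA1 transfected array lay above every control array, and the third of them lay nearest to the control arrays. The log2 difference was 0.39 (SE 0.10), with the smallest adjusted p among all members, 0.198 by limma. Without FOXA1 array 3 the difference was 0.52 and limma's adjusted p was 0.0499. After median centring it was 0.21 and the groups overlapped.

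S100A2, a calcium sensor of basal epithelial cells that binds p53, had 331, 277 and 337 in FOXA1 transfected cells and 245, 211 and 313 in control cells. The highest control array lay above the lowest FOXA1 transfected array, and the log2 difference was 0.31 (SE 0.14, limma adjusted p = 0.435). S100A16, which is widely expressed in epithelia, had 1871, 1746 and 1679 against 1713, 1677 and 1591. These ranges overlapped, with a log2 difference of 0.087 that was -0.095 after median centring.

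S100A13 was the bright S100 gene that lay lower. It has been tied to the release of FGF1 and interleukin 1 alpha, proteins that leave the cell without a signal peptide. FOXA1 transfected arrays had 1110, 1237 and 1166, against 1342, 1310 and 1368 in control arrays. All 3 FOXA1 transfected arrays lay below all 3 control arrays, by 0.20 on the log2 scale (SE 0.074, limma adjusted p = 0.346). Its dimmer second probeset gave a difference of -0.21. After median centring of the arrays the difference was -0.38 but the groups overlapped.

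S100A10 (p11), which has lost the ability to bind calcium and forms a tetramer with annexin A2, had 2251, 2279.9 and 2091 in FOXA1 transfected cells. Control cells had 2211, 2177 and 2167. The groups overlapped and their means differed by 0.014 on the log2 scale, with a 95% confidence interval from -0.14 to 0.17. That difference was -0.17 after median centring.

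Its partner ANXA2, which anchors the complex to membranes and binds plasminogen and its activator at the cell surface, had 5149, 4871 and 4158 against 4396, 4309 and 4344. The FOXA1 transfected arrays spanned the control arrays on both sides, with a log2 difference of 0.11 that was -0.015 after quantile normalization and -0.068 after median centring. The 2 further bright probesets of ANXA2 gave 0.15 and 0.076. All 3 bright probesets of ANXA2 have names ending in _x_at, which marks probes that also match other transcripts. The pseudogene ANXA2P2, read by 1 probeset of this kind, had 1423, 1111 and 927 against 1765, 1605 and 1235, a log2 difference of -0.42 (limma adjusted p = 0.345) with overlap. Signals of the gene and of its pseudogenes cannot be told apart at such probesets.

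The partner of S100A11 is ANXA1, an anti-inflammatory annexin that acts through formyl peptide receptors once secreted. It had 1683, 1812 and 1605 in FOXA1 transfected cells, against 1609.7, 1931 and 1732 in control cells. The groups overlapped, with a log2 difference of -0.045 and a 95% confidence interval from -0.24 to 0.15. The interval of S100A11 ran from 0.16 to 0.62, and the difference between the genes was not tested.

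The bright annexins that lay furthest from 0 were ANXA6 and ANXA4. ANXA6, which has a duplicated annexin core and links late endosomes, cholesterol and the actin cortex, had 434, 417 and 361 against 286, 364 and 298. The highest control array lay just above the lowest FOXA1 transfected array, and the log2 difference was 0.36 (SE 0.11, limma adjusted p = 0.263). ANXA4, an annexin of epithelial secretory cells, had 455, 379 and 366 in FOXA1 transfected cells and 505, 504 and 517 in control cells. All 3 FOXA1 transfected arrays lay below the control arrays, with a log2 difference of -0.35 (SE 0.095, limma adjusted p = 0.202). Its second bright probeset gave -0.065.

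ANXA5, which binds phosphatidylserine and is used as a label of dying cells, had 2646, 2706 and 2813 against 2509, 2364 and 2539. Each FOXA1 transfected array was above each control array, by 0.14 on average on the log2 scale (limma adjusted p = 0.497), but the difference was -0.043 and the groups overlapped after median centring. ANXA11, which tethers RNA granules to lysosomes, had 995, 1117 and 764 against 670, 908 and 839, a log2 difference of 0.24 with overlap. Its other bright probeset gave -0.044 and its dim one -0.78. ANXA7 (synexin), named for its part in membrane fusion, had 1597, 1618 and 1375 against 1455, 1541 and 1517. Its log2 difference was 0.021 at the brightest probeset and 0.023 at the second, with overlap, and it was -0.16 after median centring. S100PBP had 246, 297 and 242 against 291, 389 and 265, also with overlap, and gave -0.26 and -0.29 at its pair of bright probesets.

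**Figure D2:**
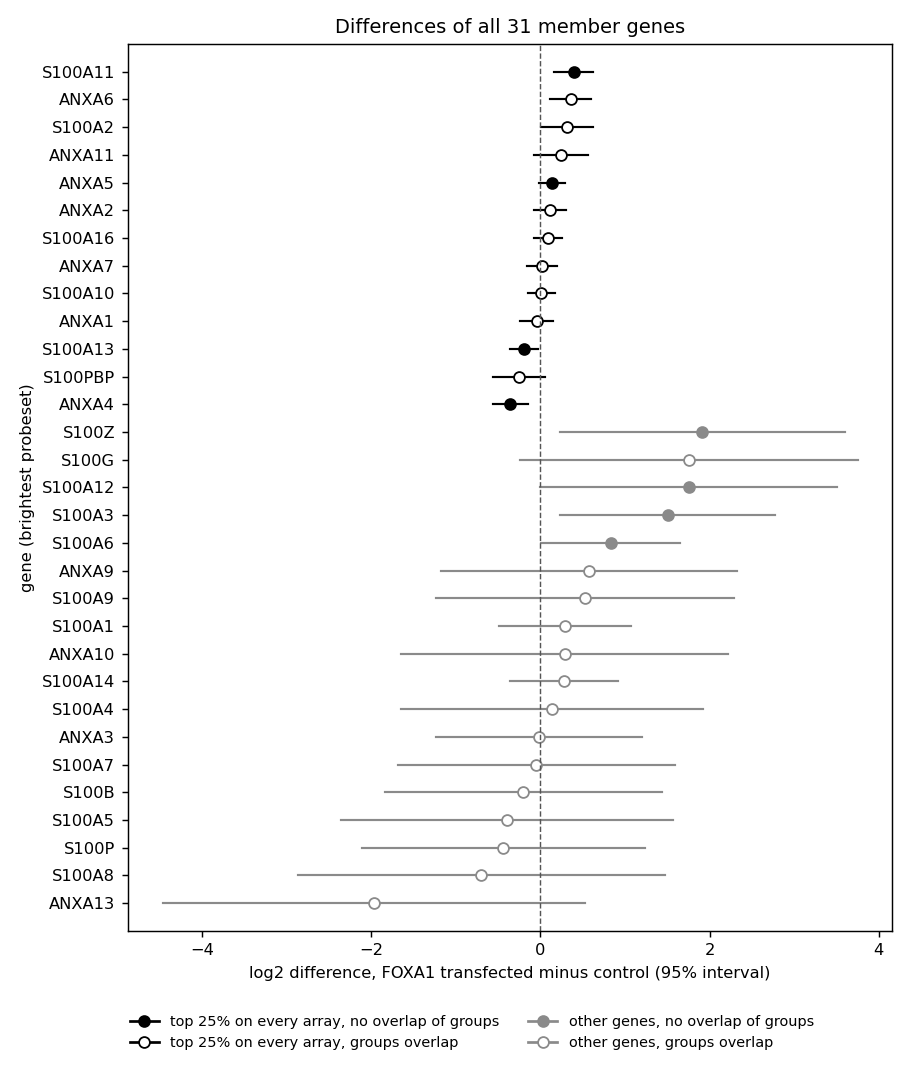
Log2 difference in signal (FOXA1 transfected minus control) of all 31 members at their brightest probesets, with 95% confidence intervals from limma. The 13 members in the top 25% of signals lie between -0.35 and 0.39, while the other 18 spread from -1.97 to 1.91 with wide intervals, and the sign of ANXA2, ANXA5, ANXA7, S100A10, S100A16 and S100A4 turns after median centring.

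No member passed limma's adjusted p under 0.05 in either direction, where 0.0607% of all genes passed higher and 0.0303% lower (0.091% in all), and none passed by SAM. Nor did any of the 47 member probesets, where 0.0385% of all probesets passed higher and 0.0201% lower. At an unadjusted p under 0.05 there were 9 member genes (7 higher and 2 lower, 29.0% of the 31), against 14.6% of all genes (9.07% higher and 5.49% lower). Of the 9, S100A2, S100A11, S100A13, ANXA4 and ANXA6 were among the 13 bright members. Among all genes in the top 25% on every array the share was 23.6%. Groups without overlap were seen in 8 members, against 19.7% of all genes. Of these, 6 lay above (S100A3, S100A6, S100A11, S100A12, S100Z and ANXA5), where 12.5% of all genes did, and 2 lay below (S100A13 and ANXA4), where 7.25% did. Among the 13 bright members the count was 2 above and 2 below, and among all genes in the top 25% on every array 14.5% lay above and 14.2% below (28.7% in all). The log2 difference was above 0 in 13 of 19 S100 genes and in 7 of 11 annexins (10 and 4 after median centring), while 59.2% of all genes had one above 0. In the bright set it was above 0 in 9 of 13, beside 50.6% of all genes in the top 25%.

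The median log2 difference was 0.28 over the S100 genes and 0.11 over the annexins, beside 0.074 over all genes. Over the bright S100 genes alone it was 0.087, and over the bright annexins 0.11. All genes that were bright by the same rule had a median of 0.0029. The median standard error was 0.088 in the bright members and 0.78 in the others. Median centring, which sets the array medians of 12.3 to 17.5 equal, gave a median of -0.10 over all probesets, which was 0.081 without it. It gave a median of 0.10 over the S100 genes and one of -0.068 over the annexins. The medians are therefore given as values, with no call.

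The dim S100 genes had wider intervals than the bright ones. S100A6 (calcyclin), a gene of growing cells that binds CACYBP, had 33.6, 23.3 and 25.7 in FOXA1 transfected cells, against 19.8, 8.8 and 20.5 in control cells. The groups did not overlap at this probeset, and the log2 difference was 0.83 (SE 0.37, limma adjusted p = 0.434). The second probeset of S100A6 gave 1.45 (SE 0.88), with overlap and signals from 0.8 to 8.9. S100A3, known from the hair cuticle, had 13.8, 9.9 and 9.4 against 2.8, 5.6 and 3.6. For S100A3 the groups did not overlap, with a log2 difference of 1.50 (SE 0.58, limma adjusted p = 0.356). It was 1.40 once signals under 3.5, the 20th percentile, were set to that value.

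S100A12, a neutrophil protein and ligand of RAGE, had 8.0, 3.6 and 5.3 against 3.3, 0.8 and 1.5, without overlap. Its log2 difference was 1.76, and 0.61 with the floor at 3.5. The leukocyte markers had a median log2 difference of 0.46, with 9 of 13 above 0. The 4 below 0 were ELANE (-0.87) and MPO (-0.021) of neutrophils, ITGAM (-0.0058) and HLA-DRA (-0.061), each with overlap. The leukocyte markers were dimly read as well, and 8 of the 13 lay under the array's median signal on every array. That median was 17.5, 14.4 and 16.3 in FOXA1 transfected arrays, against 14.2, 12.3 and 16.1 in control arrays, with overlap. All arrays were of the same cultured carcinoma line, and no link between these markers and the S100A12 value was tested. S100Z, a little studied partner of S100P, had 2.3, 4.0 and 6.8 against 0.9, 1.3 and 1.0. These did not overlap either, but with the floor the difference of 1.91 became 0.38 and the groups overlapped. S100G (calbindin-D9k), the vitamin D dependent calcium carrier of the intestine, gave 1.76 with overlap, and 0.38 with the floor.

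The calprotectin pair was dimly read too. S100A8, which forms a zinc-binding and manganese-binding dimer with S100A9 in neutrophils and inflamed epithelia, had 13.0, 0.8 and 7.5 in FOXA1 transfected cells, against 8.0, 3.7 and 11.2 in control cells. S100A9 had 1.8, 3.1 and 1.2 against 1.6, 0.7 and 2.0, all under the floor of 3.5. Both overlapped between the groups, with log2 differences of -0.70 and 0.53 that were 0.014 and 0 with the floor. S100A7 (psoriasin, -0.046) and S100B, the glial member (-0.20), were also under the floor on all 6 arrays. The remaining dim S100 genes overlapped between the groups, namely S100A1 of heart muscle (0.29), S100A14 of epithelia (0.28), S100A5 of olfactory neurons (-0.40), S100P (-0.44) and S100A4. For S100A4, a myosin-binding protein linked to metastasis, the log2 difference was 0.14, but -0.30 with the floor, -0.072 after quantile normalization and -0.045 after median centring.

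The dim annexins were ANXA3, ANXA9, ANXA10 and ANXA13, and all overlapped between the groups. ANXA13, an annexin of intestinal and kidney epithelium, had 0.5, 10.7 and 0.5 against 6.3, 3.8 and 6.7. Its log2 difference of -1.97, the largest below 0 of any member, was -0.097 with the floor. ANXA9, whose calcium sites are degenerate, gave 0.57, and ANXA10, known from stomach and urothelium, gave 0.29, which was -0.16 with the floor. ANXA3 gave -0.012.

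Several members were read more than once. There were 13 genes with further probesets, 16 in all, and 11 of these had the sign of the gene's brightest probeset. Of the 6 further probesets in the top 25% of signals 5 had the same sign, and the exception was the one of ANXA11. Among bright probesets of 1 gene the values lay furthest apart in ANXA11 (0.24 and -0.044) and ANXA4 (-0.35 and -0.065).

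**Figure D3:**
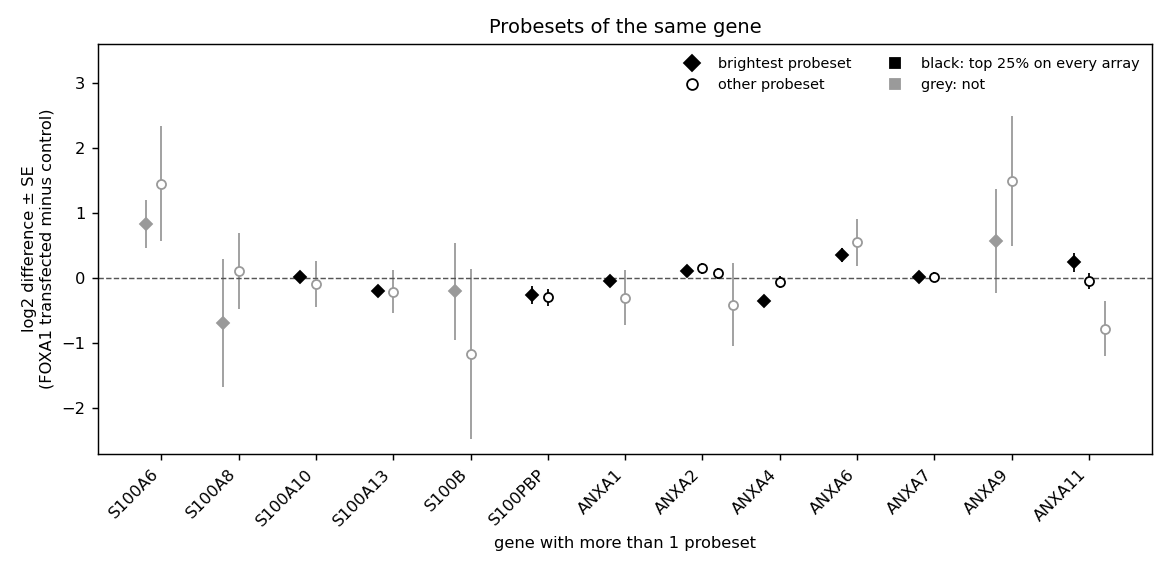
Log2 difference in signal (FOXA1 transfected minus control) of every probeset of the 13 members read by several, with bars of 1 SE from limma, diamonds for the brightest probeset, circles for the others, and black for probesets in the top 25% on every array. Bright probesets lie close together in ANXA2, ANXA7 and S100PBP and further apart in ANXA4 and ANXA11.

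By position, 15 of the S100 genes lie in 1q21 on chromosome 1, over 1.65 Mb of GRCh38.p14 in the RefSeq annotation. S100A10 (chr1:151982915-151993859) and S100A11 (chr1:152032506-152037004) stand at one end. A gap of 1.32 Mb with 47 other coding genes, among them many of the epidermal differentiation complex, separates them from S100A9 and the 12 genes after it, which fill 277 kb up to S100A1 and S100A13. Only 5 of the 15 were in the top 25% of signals, and the 4 other bright genes beside S100A11 gave log2 differences from -0.20 to 0.31. S100A1 lies within the span of S100A13, and gave 0.29 where S100A13 gave -0.20. S100A16 and S100A14, which are 1.12 kb apart, were in the bright and in the dim set.

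**Figure D4:**
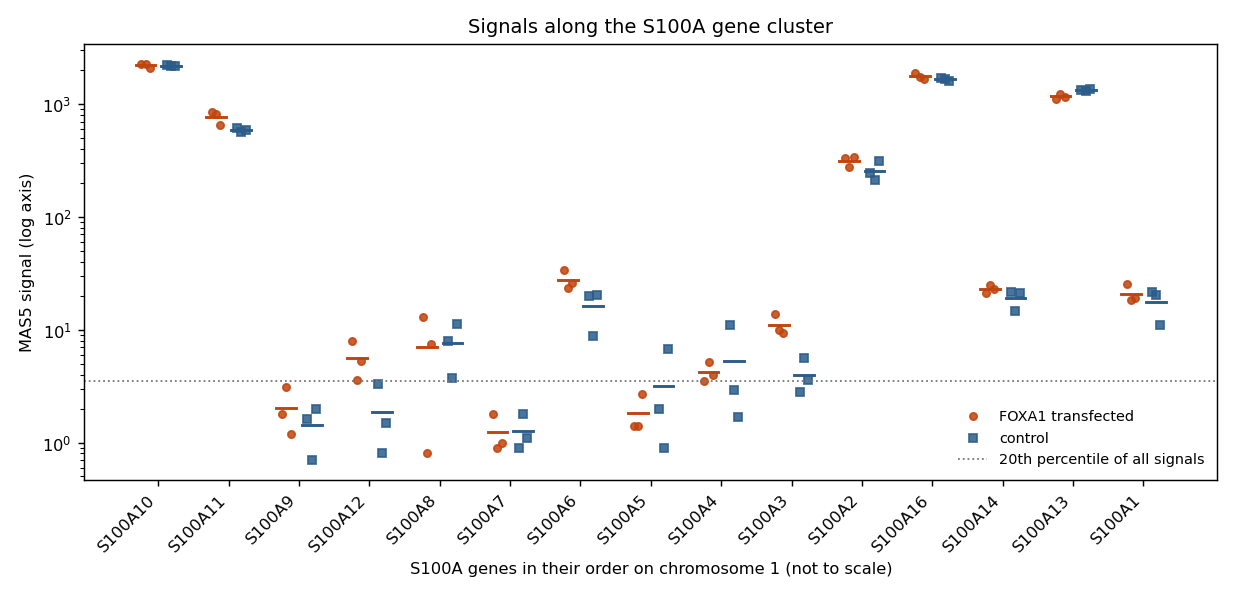
MAS5 signal (log axis) of the 15 S100A genes of chromosome 1 in genome order, not to scale, with 1 point per array, a bar at the mean, and FOXA1 transfected arrays left of control arrays for each gene. The 5 bright genes stand at the S100A10 end and among the last 5, the dotted line marks the 20th percentile of all signals (3.5), and signals of different genes are not on a common scale.

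The epidermal differentiation complex in the gap holds the genes of the cornified envelope and of the S100 fused-type proteins. Of its 27 listed genes 18 were measured, none was in the top 25% of signals and none passed the test in either direction (0 higher and 1 lower at an unadjusted p under 0.05). The median log2 difference was 0.18, with 11 above 0 and 7 below. Repetin (RPTN), an S100 fused-type protein, had 0.5, 0.5 and 1.4 against 2.5, 5.0 and 5.0, and lay lower on each FOXA1 transfected array (-2.49, limma adjusted p = 0.271).

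Promoter sequence was set beside the signals, since the bright and the dim members had separated without use of it. RefSeq promoters (GRCh38.p14, 250 bases before to 50 after a transcript's start) were given for 29 of the 31 genes, all but ANXA13 and S100B, 42 promoters in all. The 23 promoters of the 13 bright genes had a median ratio of observed to expected CpG of 0.702. Of these 23 promoters 12 were over 0.6, and they belonged to 10 of the 13 genes. The 19 promoters of 16 dim genes had a median of 0.204, and 2 of the 19, of S100A6 and ANXA3, were over 0.6. Over all 35116 promoters the median was 0.579, and 48.8% were over 0.6, a share of promoters and not of genes. The bright genes without such a promoter were ANXA1, S100A2 and S100A16.

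**Figure D5:**
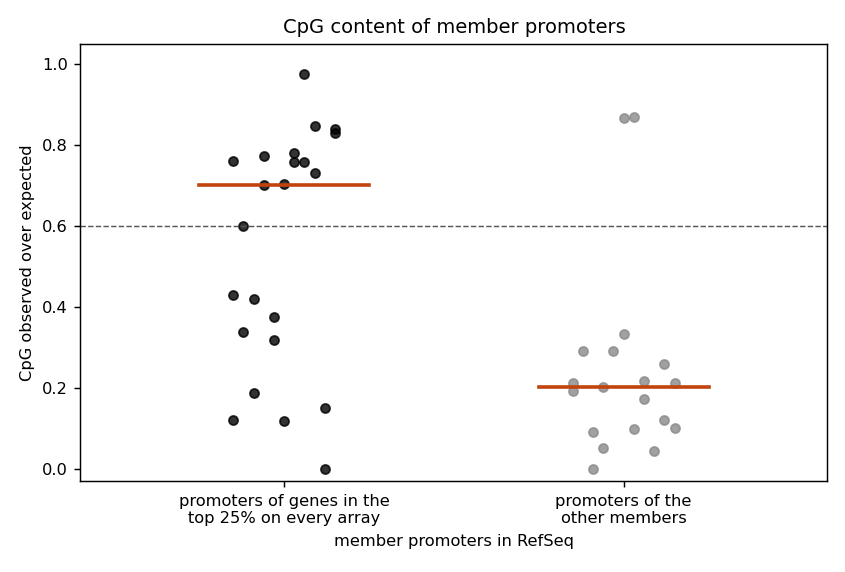
Ratio of observed to expected CpG in the 23 RefSeq promoters of the 13 bright members (left) and the 19 promoters of 16 dim members (right), with 1 point per promoter, a bar at the median and a dashed line at 0.6. The medians are 0.702 and 0.204, and both groups reach from 0 to over 0.6.

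The 5 promoters below are shown because they hold the motif of the transfected factor, belong to the members with the smallest adjusted p, or show the CpG-poor form. In the first pair the capitals mark GTAAACA, the reverse complement of the forkhead motif TGTTTAC.
S100A3 promoter, chr1:153549209-153549508, minus strand: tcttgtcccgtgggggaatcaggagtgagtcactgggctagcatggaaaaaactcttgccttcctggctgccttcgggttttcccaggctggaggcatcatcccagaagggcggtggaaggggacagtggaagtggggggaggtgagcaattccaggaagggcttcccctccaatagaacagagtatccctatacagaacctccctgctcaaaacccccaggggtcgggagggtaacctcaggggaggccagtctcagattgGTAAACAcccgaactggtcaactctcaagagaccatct
S100Z promoter, chr5:76874373-76874672, plus strand: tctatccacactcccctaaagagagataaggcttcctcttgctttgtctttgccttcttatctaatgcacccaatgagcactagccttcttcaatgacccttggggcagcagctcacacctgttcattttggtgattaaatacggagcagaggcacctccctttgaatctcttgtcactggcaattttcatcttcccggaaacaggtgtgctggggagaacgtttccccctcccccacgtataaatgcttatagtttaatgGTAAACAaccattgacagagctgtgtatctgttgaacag
In the next pair, of the members with the smallest adjusted p, capitals mark the SP1 box GGGCGG or its reverse complement CCGCCC, and matches that overlap run together.
S100A11 promoter, chr1:152036955-152037254, minus strand: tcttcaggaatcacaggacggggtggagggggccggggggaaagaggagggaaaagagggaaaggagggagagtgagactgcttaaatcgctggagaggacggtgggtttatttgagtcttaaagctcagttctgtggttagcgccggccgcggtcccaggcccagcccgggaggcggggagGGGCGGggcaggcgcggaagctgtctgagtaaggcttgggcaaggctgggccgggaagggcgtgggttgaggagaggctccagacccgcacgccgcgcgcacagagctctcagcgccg
ANXA4 promoter, chr2:69643558-69643857, plus strand: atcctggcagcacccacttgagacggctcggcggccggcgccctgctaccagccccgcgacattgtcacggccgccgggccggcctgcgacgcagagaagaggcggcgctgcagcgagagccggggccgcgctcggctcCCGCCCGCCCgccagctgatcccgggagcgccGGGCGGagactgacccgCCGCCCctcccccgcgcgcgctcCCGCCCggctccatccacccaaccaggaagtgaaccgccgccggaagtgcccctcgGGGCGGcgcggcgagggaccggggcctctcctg
In the last, of a dim neutrophil gene, capitals mark the TATA box TATAAA.
S100A12 promoter, chr1:153375572-153375871, minus strand: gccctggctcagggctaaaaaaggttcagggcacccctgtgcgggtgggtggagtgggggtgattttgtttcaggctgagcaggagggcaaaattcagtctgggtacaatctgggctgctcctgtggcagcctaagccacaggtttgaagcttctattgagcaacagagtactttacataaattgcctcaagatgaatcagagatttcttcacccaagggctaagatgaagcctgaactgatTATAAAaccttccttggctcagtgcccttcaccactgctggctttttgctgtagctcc

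Motifs were searched on both strands as exact matches. The forkhead motif TGTTTAC was in 2 of the 42 member promoters (4.76%, S100A3 and S100Z), against 3.42% of all promoters. Its variant TGTTTGC was in 1 (2.38%, S100A9), against 3.89% of all promoters, and TATTTAC in none, against 2.67%. TATAAA was in 14 (33.3%, in 4 bright and 9 dim genes), against 11.5%, and the AP-1 motif TGAGTCA in 5 (11.9%), against 4.95%. GGGCGG was in 16 (38.1%, in 11 bright and 3 dim genes), against 45%, and CCAAT in 12 (28.6%), against 34.6%. Promoters of the same gene can overlap, so these are not independent, and a match is a description of letters.

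Genes that work with the members were read from lists by function. Of 17 receptors of secreted S100 proteins and annexins none passed the test (1 higher and 1 lower at an unadjusted p under 0.05), 9 lay above 0 and 8 below, and the median was 0.11. SCARB1, the HDL receptor, had 241, 258 and 233 in FOXA1 transfected cells, against 155, 164 and 179.6 in control cells, without overlap (0.56, limma adjusted p = 0.0905). BSG, a receptor of S100A9, had 443, 429.9 and 412 against 488, 516 and 503 (-0.23, limma adjusted p = 0.293). AGER, which encodes RAGE, had 20.3, 11.1 and 5.4 against 14.6, 11.3 and 13.4, with overlap.

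Intracellular partners were 29 of 31 measured, 21 of them in the top 25%, and again none passed (3 higher and 3 lower at an unadjusted p under 0.05), with 10 above 0, 19 below and a median of -0.052. DLG1, a scaffold of cell polarity, had 409, 404 and 392 against 502, 616 and 536 (-0.45, limma adjusted p = 0.111). CACYBP, the partner of S100A6, had 2853, 2997 and 2729 against 2429, 2467 and 2405 (0.23, limma adjusted p = 0.257). AHNAK, the giant scaffold that the S100A10 and annexin A2 complex binds, had 761, 679 and 794 against 883, 895 and 838 (-0.23, limma adjusted p = 0.317). The arrays of these 3 genes did not overlap, with DLG1 and AHNAK below and CACYBP above. GAPDH, also on this list, had 7678, 7812 and 6446 against 5876, 5948 and 5899, above on each array (0.30, limma adjusted p = 0.230).

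Other EF-hand genes were 44 of 49 measured, with 25 above 0, 19 below, a median of 0.074 and no pass (2 higher and 3 lower at an unadjusted p under 0.05). CIB1, a calcium and integrin binding protein, had 1187, 1236 and 1149.9 against 1407, 1459 and 1315, below on each array (-0.23, limma adjusted p = 0.285). MICU2, which gates the mitochondrial calcium uniporter, gave -0.21, and TESC gave -1.73, both also without overlap. TESC was dimly read, with 4.7, 1.8 and 2.5 against 12.6, 9.8 and 6.3. The 2 higher genes were SDF4 (0.22) and CAPNS1 (0.25), each above on every array. Of 25 C2 domain and membrane repair genes 24 were measured, with 13 above 0, 11 below, a median of 0.013 and no pass (1 higher and 1 lower at an unadjusted p under 0.05). ESYT2, a tether between endoplasmic reticulum and plasma membrane, had 398, 402 and 421 against 505, 523 and 447, without overlap (-0.27, limma adjusted p = 0.274). FER1L5, a ferlin, had 15.3, 12.2 and 5.5 against 2.2, 0.7 and 1.3, also without overlap (limma adjusted p = 0.187).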

How the data were processed

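Both groups of EJ/T24 cells were hybridised to 1-colour HG-U133 Plus 2.0 arrays. Per the labels, the authors deposited MAS5 signals, 1 linear intensity for each probeset and array. The methods describe RMA log2 values before SAM, which were not used here. After 62 array control probesets were left out, 54613 remained (41091 with 1 gene symbol, 1801 with several, 11721 with none). Values of 0 (25, none among the members) were set to 0.1 before log2.

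The test was limma 3.58.1 (R 4.3.3, lmFit and eBayes with intensity trend, two-sided), adjusted by Benjamini-Hochberg across the 54613 probesets, at a threshold of 0.05. The members and gene lists were chosen with earlier results of these data known. Values by array are given for members without overlap, for the largest differences above the median signal and for known partner pairs, and up to 3 genes of a list with the smallest p are named, most with values by array. S100PBP, S100A3, S100A12, S100Z, ANXA13, AHNAK, SDF4, CAPNS1, AGER, PTPRC, MPO, ITGAM and HLA-DRA were added after their values were seen. Of 14 measured markers of other cell types none passed, with 7 above 0 and 7 below. MYL1, with no signal over 14.3, gave 1.93, PECAM1 0.47, CDH5 -0.14 and VWF -0.052. Alternatives were SAM (20 permutations), no trend, quantile normalization, median centring, a floor at the 20th percentile (3.5), leaving out dim or _x_at probesets, the median over a gene's probesets, a replicate block, and each array left out. The fit was tested on simulated data. The number of arrays limits precision.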

Additional observations from a re-analysis of the deposited data

How the results depend on the processing

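No member passed in any setting but 1: without FOXA1 array 3 the count was 1 (S100A11, limma adjusted p = 0.0499), so that it ranged from 0 to 1 with an array left out. The 8 members without overlap (beside 19.7% of all genes) became 5 after median centring, where the share of all genes was 13.7%. With dim probesets left out they were 5 of 16 genes, beside 25.1% of all genes kept. With an array left out they ranged from 9 to 14 (without FOXA1 array 3), when the share of all genes was 26.6% to 35.5%. The S100 median of 0.28 was 0.12 after quantile normalization, 0.10 after median centring and 0.087 with the floor, and ranged from 0.11 (without control array 2) to 0.38. The annexin median of 0.11 was -0.068 after median centring, 0.021 with the floor, 0.021 without _x_at probesets and 0.022 as the median over probesets, and ranged from -0.0029 (without control array 1) to 0.12. Median centring moved the log2 difference of every member by the same amount, as in S100A11 (0.39 to 0.21) and ANXA1 (-0.045 to -0.23). The median over all genes moved with it, from 0.074 to -0.11. Centring sets the array medians equal, which were 12.3 to 17.5, while the bright members had no signal under 210.7. As deposited, the trimmed means of the arrays were already near 100. Genes in the top 25% on every array then had a median difference of 0.0029. The cause of the other shifts was not tested.

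Of the 15 members named by the rule, signs turned after median centring in ANXA2 (-0.068), ANXA5 (-0.043), ANXA7 (-0.16), S100A10 (-0.17) and S100A16 (-0.095), after quantile normalization in ANXA2 (-0.015), with the floor in S100A8 (0.014), without _x_at probesets in ANXA2 (-0.41, a dim probeset), and over a gene's probesets in ANXA11 (-0.044) and S100A10 (-0.038). With an array left out they turned, among these 15, in ANXA7 (-0.021 to 0.096), S100A10 (-0.010 to 0.052), S100A8 (-1.50 to 0.51) and ANXA1 (-0.11 to 0.025). Over all 31 members signs turned in 6 with median centring, 2 with quantile normalization, 3 with the floor and 13 with an array left out. The replicate number as a block gave 0 members and 85 probesets called, against 32 without it. The deviations of same-numbered arrays correlated at 0.0022, 0.038 and 0.011, so the numbers were not taken to pair the arrays. Over all probesets SAM called 4, limma without trend 1, median centring 7, leaving out dim probesets 179 of 27306, and the median over probesets 10 genes.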
